A study of Mus musculus with 8 samples.

Results

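Genes of bicarbonate, chloride and pH regulation were examined in the lower molars of mouse embryos in which the Notch ligand Jagged1 had been deleted from the epithelium. The 8 genes were Car2, Car6, Car12, Cftr, Slc4a2, Slc4a4, Slc26a1 and Slc26a7, found by matching their symbols to the Ensembl identifiers of the count tables, and they are 8 of 43629 genes counted. All 8 were among the 17129 genes with enough counts to be tested, that is at least 10 counts in at least 2 embryos of either group. RNA came from lower first molars at stage E18.5, with both sides of each embryo combined, from 4 embryos per group. The Mutant embryos carried K14:cre and Jagged1 fl/fl. The Control embryos were littermates that carried Jagged1 fl/fl without Cre, so both groups shared the floxed allele; the paper calls them WT. The K14 promoter drives Cre in epithelium, so the mesenchyme of the same molars is not targeted.

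Enamel mineral is laid down by ameloblasts, epithelial cells that line the crown, and the growth of its crystals releases protons. Carbonic anhydrases turn carbon dioxide and water into bicarbonate and protons, exchangers of the SLC4 and SLC26 families carry bicarbonate, chloride and other anions across the cell membrane, and the channel Cftr conducts chloride and bicarbonate. These genes are best known in teeth from the maturation stage of enamel, which in mouse molars comes after birth.

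The counts on genes ran from 17327224 to 28613574 in Control and from 24692128 to 29792467 in Mutant embryos. Levels are given as CPM, the share of a gene in a library size scaled by the TMM method, and 3 counts correspond to 0.0998 to 0.166 CPM, which covers counting error only. Jag1 itself was at 95.2, 103, 104 and 99.9 CPM in the Control embryos J3, J5, J6 and J7, and at 34.0, 39.0, 46.0 and 57.1 CPM in the Mutant embryos K14J26, K14J28, K14J29 and K14J30. All 4 Mutant values lay below all 4 Control values, and the log2 fold change, Mutant over Control, was -1.19 ± 0.14 (SE, n = 4 per group; adjusted p = 0.00517, edgeR quasi-likelihood test with Benjamini-Hochberg adjustment over all tested genes). The counts cover the whole gene, so reads from exons outside the deleted part are included.

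Markers of both tooth tissues were abundant. The 7 markers of dental and oral epithelium summed to 5585 to 6373 CPM in Control and 6439 to 9122 CPM in Mutant embryos, with Krt5 the most abundant, and the 7 of dental mesenchyme to 4832 to 7593 and 6359 to 17747 CPM, led by Col1a1. Of the 7 mesenchyme markers, 1 was called higher, Col1a1, which made up 16676 CPM of the highest sum, and 4 were called lower (Msx1, Pax9, Barx1 and Twist1, named after their values were seen), with a median log2 fold change of -0.26. The embryos differed in other cell types. The 4 secretory ameloblast markers, led by Amelx, summed to 680, 1903, 3253 and 557 CPM in J3, J5, J6 and J7, and to 114350, 3502, 25816 and 9642 CPM in K14J26, K14J28, K14J29 and K14J30. All 4 of these markers were called higher, with a median log2 fold change of 4.74, and the Mutant embryos spread far more than the Control embryos. The 4 odontoblast markers, led by Dspp, had the same order among the Mutant embryos, K14J26 (7483 CPM), K14J29 (5693), K14J30 (3500) and K14J28 (2347). Control embryos had 708 to 1994 CPM, and 3 of these markers were called higher. The 5 maturation ameloblast markers, led by Odam, summed to 164, 222, 174 and 159 CPM in J3, J5, J6 and J7, and to 402, 463, 425 and 341 CPM in K14J26, K14J28, K14J29 and K14J30. Odam was the 1 called higher of the 4 that were tested.

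Osteoclast and skeletal muscle transcripts set single embryos apart. The 10 osteoclast markers, led by Ctsk, summed to 1934 CPM in K14J28 and to 342 to 751 CPM in the other embryos, with none of the 10 at 0 in all embryos. The 10 skeletal muscle markers, led by Acta1, summed to 471 CPM in J6 and 241 CPM in J7, against 6.15 to 22.1 CPM in the other 6 embryos. Xist, used below as a covariate, was at 1930 CPM in K14J28 and 1468 CPM in K14J29. It was at 0.259 to 1.09 CPM in the other 6 embryos. No Control embryo had a high Xist level, so the groups were not balanced in it. The 7 salivary gland markers, checked because Car6 is known from saliva, summed to at most 0.507 CPM in any embryo, and Bpifa2, Prol1 and Dcpp2 had no count in any. In these bulk samples, fewer cells of a type and less RNA per cell cannot be told apart.

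Of the 8 genes, 3 were higher in the Mutant molars at an adjusted p under 0.05 (Cftr, Slc4a2 and Slc26a1) and 0 were lower. Among all tested genes 16.1% were called, 9.52% higher and 6.61% lower. At an unadjusted p under 0.05, 5 of the 8, Car6 among them, were higher and 0 lower, beside 19.1% and 15.7% of all tested genes. DESeq2 called 5 higher and 0 lower, beside 2244 higher and 1718 lower among all 17129 tested genes. The paper selects genes by a p of 0.05 or less and a fold change of 0.5 or more, read here as an unadjusted p and a log2 fold change in either direction. By this reading 4 of the 8 were higher (Car6, Cftr, Slc4a2 and Slc26a1) and 0 lower, beside 8.33% and 5.85% of all tested genes. Car6 reached 10 counts in 2 embryos only in the Mutant group, and 3 were higher apart from it. For 3 of the 8, Cftr, Slc4a2 and Slc26a1, all 4 Mutant values lay above all 4 Control values, as for 12.6% of tested genes, and for 0 of the 8 did they lie below, as for 11.6%. Without J6 and J7, the embryos with muscle transcripts, 2 Control embryos remain, and edgeR called 0 of the 8 (4 higher and 0 lower at an unadjusted p under 0.05), while 3 of all tested genes were called higher and 4 lower. With a score of skeletal muscle markers added to the model as a covariate it called 1 of the 8 higher, Cftr, and 114 tested genes higher and 90 lower, and no list below kept more than 2 calls under either of these settings. Without K14J26 edgeR called 3 of the 8 higher and 0 lower, beside 1746 and 1349 of all 16994 tested genes. Without K14J28 it called 4 higher and 1 lower, beside 2479 and 1843 of 16954. The median log2 fold change was 0.42 over the 8 genes and 0.01 over all tested genes.

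**Figure D1:**
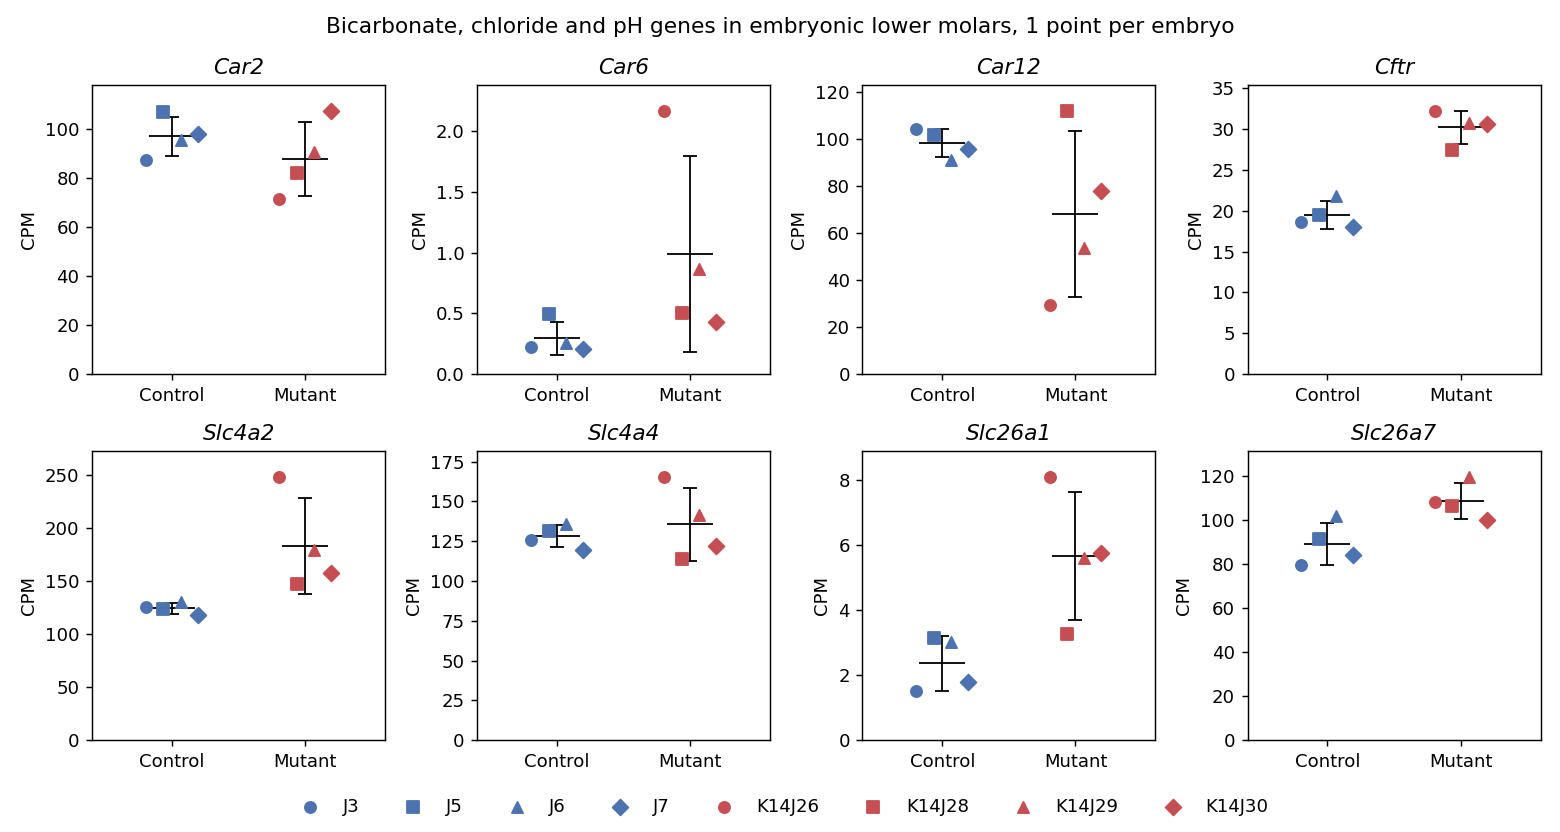
CPM of each of the 8 genes (y axis, from 0) in each embryo of the Control and Mutant groups (x axis); points are embryos, black lines the mean and SD of 4 embryos. The Mutant values of Cftr lie between 27.4 and 32.2 CPM, above the highest Control value of 21.8 CPM, while those of Car12 run from 29.3 to 112 CPM.

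Compared per length, the carbonic anhydrase Car2 was the most abundant of the 8 genes in Control molars, at 40.1 ± 3.33 CPM per kilobase of exon (SD, n = 4). Slc26a7 (16.4 ± 1.77) and Slc4a2 (14.9 ± 0.607) came next and did not differ beyond their spread, nor did Car12 (12.9 ± 0.796) and Slc4a4 (11.9 ± 0.647). Cftr (2.51 ± 0.217), Slc26a1 (0.582 ± 0.206) and Car6 (0.162 ± 0.0746) were lower and stood apart from each other. In Mutant molars Car2 was also first, at 36.3 ± 6.25 CPM per kilobase, followed by Slc4a2 (21.96 ± 5.45) and Slc26a7 (19.98 ± 1.501), which overlapped. Slc4a4 (12.5 ± 2.13) and Car12 (8.98 ± 4.64) overlapped as well, then came Cftr (3.90 ± 0.260), and Slc26a1 (1.40 ± 0.486) and Car6 (0.545 ± 0.444) overlapped at the bottom.

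The carbonic anhydrases of the group differ in where they act. Car2 (ENSMUSG00000027562, chr3:14886273-14900770, GRCm38), the cytosolic enzyme, was at 87.6, 107, 95.5 and 98.3 CPM in J3, J5, J6 and J7, and at 71.6, 82.1, 90.6 and 107 CPM in K14J26, K14J28, K14J29 and K14J30. The groups overlapped, with K14J30 just above the highest Control embryo and K14J26 and K14J28 below all of them, and the log2 fold change was -0.14 ± 0.12 (SE; adjusted p = 0.415), -0.06 without K14J26 and -0.25 without K14J30. The 3 tested genes most like Car2 over the 8 embryos were Krt74, Serpina3f and Gm13620, with Pearson r of 0.964, 0.964 and 0.952 on log2 CPM. Krt74, at 0.288 to 0.701 CPM, and Gm13620, at 0.0961 to 0.504 CPM, were close to the detection floor.

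Car12 (ENSMUSG00000032373, chr9:66713686-66766845), an enzyme of the cell surface with its active site outside the cell, had the widest spread of the abundant members. Control embryos lay close together at 104, 102, 91.0 and 95.8 CPM (J3, J5, J6, J7), with a coefficient of variation of 6.15%. The Mutant embryos were at 29.3 CPM in K14J26, 112 in K14J28, 53.6 in K14J29 and 78.0 in K14J30, a coefficient of variation of 51.7%. K14J28 was above every Control embryo and the other 3 Mutant embryos below every one, and the log2 fold change of -0.52 ± 0.32 had an adjusted p of 0.274. Without K14J26 it was -0.28, and without K14J28 -0.87, with an adjusted p of 0.0431, and over the 8 fits that leave out 1 embryo the adjusted p ran up to 0.467. The order of the Mutant embryos in Car12 was the reverse of that in the secretory ameloblast sum, whose part in the result was not tested. Its nearest patterns were those of Mcm8, Slbp and Dck (r = 0.995, 0.993 and 0.992 over 8 embryos).

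Car6 (ENSMUSG00000028972, chr4:150187015-150201332), the secreted enzyme of the family, was close to the detection floor. It was counted 4, 12, 5 and 6 times in J3, J5, J6 and J7, which is 0.222, 0.495, 0.259 and 0.203 CPM. The Mutant embryos K14J26, K14J28, K14J29 and K14J30 had 45, 15, 25 and 11 counts, or 2.16, 0.499, 0.866 and 0.427 CPM. K14J30 lay below J5, so the groups overlapped, and the log2 fold change was 1.69 ± 0.59 (adjusted p = 0.0775). Without K14J28 the adjusted p was 0.0434 and with DESeq2 0.0350, against 0.185 at most when another embryo was left out, and the log2 fold change was 1.01 without K14J26. Dclre1c, Mylk3 and Tac2 had the most similar patterns (r = 0.989, 0.985 and 0.983).

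Slc4a2 and Slc4a4 move bicarbonate in different ways. Slc4a2 (ENSMUSG00000028962, chr5:24423837-24440950) exchanges chloride for bicarbonate across the membrane and is known as AE2. It was at 124.9, 123, 130.2 and 118 CPM in J3, J5, J6 and J7, and at 248, 147, 179 and 157 CPM in K14J26, K14J28, K14J29 and K14J30. All Mutant values were above all Control values, and Slc4a2 rose by a log2 fold change of 0.56 ± 0.15 (adjusted p = 0.0351). The Mutant embryos had the same order in Slc4a2 as in the secretory ameloblast sum, K14J26, K14J29, K14J30 and K14J28 from high to low, and the part of these cells in the result was not tested. The fold change was 0.38 without K14J26, at an adjusted p of 0.0124. Without J3, J5, J6, J7 or K14J29 the adjusted p was 0.0868, 0.0856, 0.0653, 0.0973 and 0.0859, and without both J6 and J7 it was 0.202 at a log2 fold change of 0.55. With the skeletal muscle score as a covariate it was 0.140. Over the 8 fits that leave out 1 embryo the adjusted p ran from 0.0122 to 0.0973. The most similar patterns were those of Inpp5j, Cst6 and AU040320 (r = 0.995, 0.995 and 0.994).

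Fastk, on the opposite strand, shares 1141 exon bases with Slc4a2, 13.7% of the exon bases of Slc4a2, and the library kit does not mark strand, so reads there cannot be assigned to one of the 2 genes. Fastk was at 80.9 to 88.4 CPM in Control and 81.3 to 105 CPM in Mutant embryos, with a log2 fold change of 0.16 ± 0.08 (adjusted p = 0.183). The small RNA gene Gm22333, also on that strand, was at no more than 0.499 CPM.

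Slc4a4 (ENSMUSG00000060961, chr5:88886818-89239653), the sodium bicarbonate cotransporter NBCe1, was at 126, 131, 136 and 119.8 CPM in J3, J5, J6 and J7. The Mutant embryos K14J26, K14J28, K14J29 and K14J30 were at 165, 114, 142 and 122 CPM. K14J26 and K14J29 were above all Control embryos and K14J28 below them, and the log2 fold change was 0.08 ± 0.11 (adjusted p = 0.638). Its sign turned without K14J26, at -0.03, and with library size alone as the scale, also at -0.03. Kcnh1, Baiap3 and AI837181 followed it most closely (r = 0.973, 0.973 and 0.972).

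Slc26a1 and Slc26a7 belong to the SLC26 anion exchangers. Slc26a1 (ENSMUSG00000046959, chr5:108669878-108675569) exchanges sulfate and oxalate for bicarbonate and was low in molars, at 1.495, 3.13, 3.01 and 1.79 CPM in J3, J5, J6 and J7. In K14J26, K14J28, K14J29 and K14J30 it was at 8.08, 3.26, 5.58 and 5.74 CPM. The lowest Mutant embryo, K14J28, was just above the highest Control embryo, J5, and Slc26a1 rose by a log2 fold change of 1.26 ± 0.32 (adjusted p = 0.0318). J5 and J6 were the higher Control embryos in Slc26a1 and also in the secretory ameloblast and odontoblast sums, whose part in the result was not tested. The adjusted p was 0.0834, 0.0568, 0.0504, 0.0940, 0.0810 and 0.0573 without J3, J5, J6, J7, K14J29 and K14J30, and it ran from 0.00923 to 0.0940 over all 8 such fits. Without both J6 and J7 the log2 fold change was 1.26, at an adjusted p of 0.183, and with the skeletal muscle score as a covariate the adjusted p was 0.116. Naglu, Vdr and Ucp3 had the most similar patterns (r = 0.993, 0.986 and 0.985).

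Slc26a1 lies within Idua, a gene on the opposite strand that shares 141 exon bases with it, 3.5% of the exon bases of Slc26a1. Idua was more abundant than Slc26a1 per length, at 3.15 ± 0.0924 CPM per kilobase in Control and 3.80 ± 0.269 in Mutant molars. All Mutant values of Idua, 14.3 to 16.9 CPM, were above the Control values of 12.7 to 13.6 CPM, with a log2 fold change of 0.27 ± 0.08 (adjusted p = 0.0538), and reads in the shared exons cannot be told apart.

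Slc26a7 (ENSMUSG00000040569, chr4:14502430-14621805), which carries chloride and bicarbonate, was at 79.7, 91.2, 102 and 84.2 CPM in J3, J5, J6 and J7. It was at 108, 106, 119.5 and 99.9 CPM in K14J26, K14J28, K14J29 and K14J30. The groups overlapped only through J6, which was above K14J30, and the log2 fold change was 0.28 ± 0.09 (adjusted p = 0.0574). Without J6 the adjusted p was 0.0433 and with DESeq2 0.0333, and it reached 0.152 in the fits that leave out 1 embryo. The genes most like it were Sytl2, Alox15 and Fam131a (r = 0.979, 0.964 and 0.961).

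Cftr (ENSMUSG00000041301, chr6:18170687-18322768), the chloride and bicarbonate channel of epithelial cells, had the narrowest range among Mutant embryos. It was at 18.7, 19.5, 21.8 and 18.0 CPM in J3, J5, J6 and J7, and at 32.2, 27.4, 30.7 and 30.7 CPM in K14J26, K14J28, K14J29 and K14J30. The highest Mutant embryo was 1.17 times the lowest, against 1.20 times for Slc26a7, 1.69 times for Slc4a2 and 3.82 times for Car12. The maturation ameloblast sum was above all Control values in each Mutant embryo, at 341 to 463 CPM against 159 to 222 CPM. Most of that sum was Odam alone, at 333 to 457 CPM in Mutant and 154 to 216 CPM in Control embryos. The secretory ameloblast sum ran from 3502 to 114350 CPM in the Mutant embryos. The part of ameloblasts in the result was not tested. Cftr rose by a log2 fold change of 0.63 ± 0.09 (adjusted p = 0.00717), and with any 1 embryo left out it stayed between 0.59 and 0.69 at an adjusted p of 0.00420 to 0.0328. Without both J6 and J7, which leaves 2 Control embryos, it was 0.66 at an adjusted p of 0.114. Krt80, Rrnad1 and Fryl had the most similar patterns (r = 0.989, 0.988 and 0.988). The antisense gene Gm15592 shares 129 exon bases with Cftr and was at 0.173 CPM or less, and the pseudogene Gm15595 within Cftr shares none and was at 0.311 CPM or less.

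**Figure D2:**
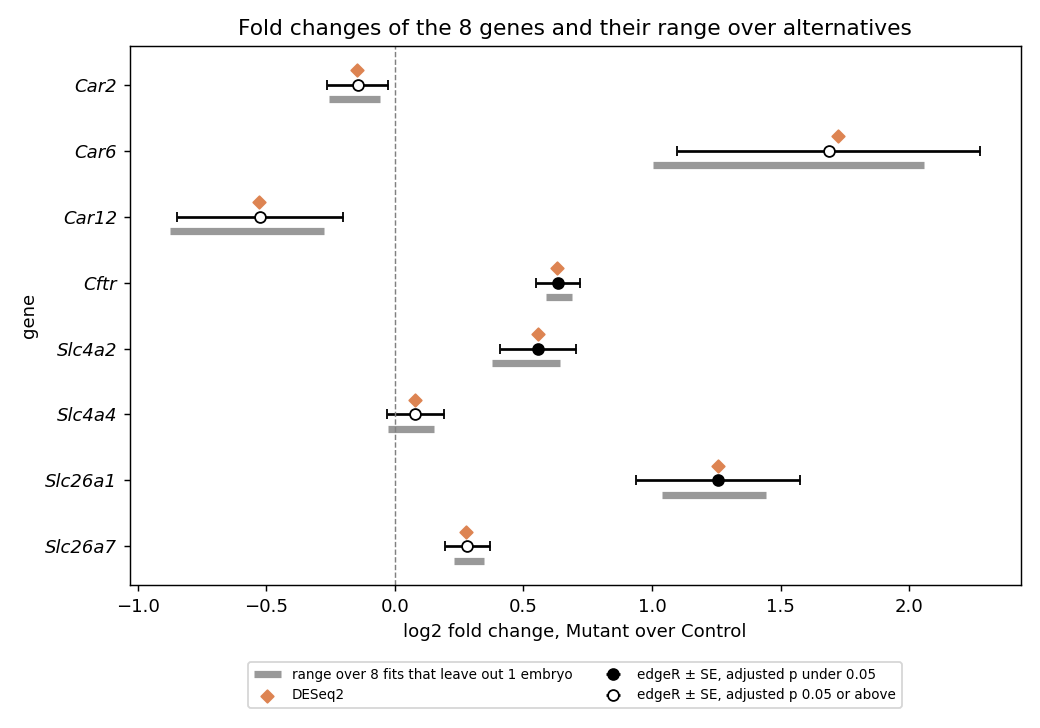
Log2 fold change, Mutant over Control (x axis), of each of the 8 genes (y axis) with its SE from edgeR, the DESeq2 estimate, and the range over the 8 fits that leave out 1 embryo. Filled points passed an adjusted p of 0.05; the range for Cftr, 0.59 to 0.69, is the narrowest of the genes called, and that for Slc4a4 crosses 0.

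**Figure D3:**
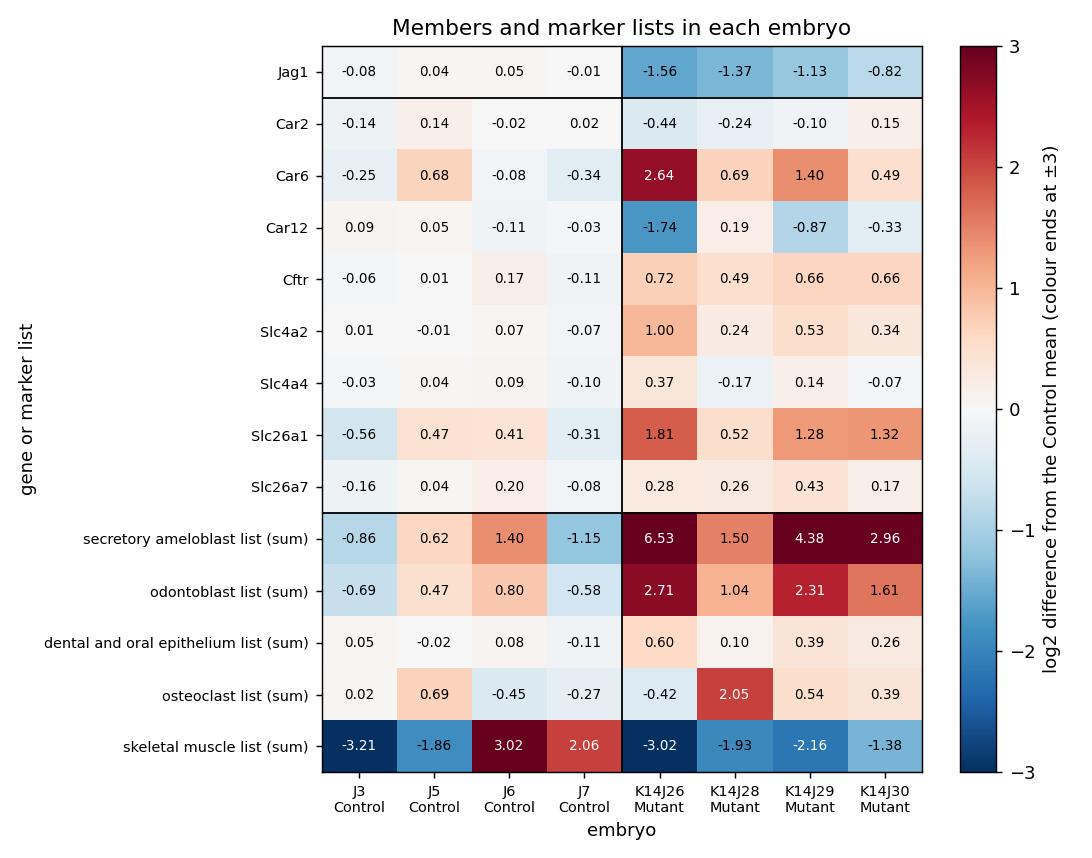
Difference of each embryo (x axis) from the Control mean on the log2 scale, for Jag1, the 8 genes and the sums of 5 marker lists (y axis); colour and printed numbers give the same value. Among Mutant embryos K14J26 has the highest secretory ameloblast sum, 6.53 above the Control mean, and the lowest Car12, -1.74, while Cftr lies at least 0.49 above it in all 4.

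Jagged1 is a ligand of Notch receptors, whose DNA-binding partner is RBPJ, and the promoters of the members were read for its motif. RefSeq promoter windows of GRCm38.p6, 250 bases before to 50 after a start, were found for 6 of the 8 members (all but Car2 and Slc26a7), 9 windows in all. They were searched on both strands for GTGGGAA (RBPJ), CACGTG (an E-box) and TGTGGT (Runx), which occur in 6.38%, 7.15% and 16.8% of the 32851 promoters of the table. The letters of the RBPJ motif were in 1 of the 9 windows, that of the second start of Slc4a2. An E-box was in the windows of Car6 and of the second start of Slc26a1, and a Runx motif in that same Slc26a1 window and in Car12. The Cftr window held none of the 3 and was rich in G and C, at 71.3% against a median of 52.7%. The windows are shown 5′ to 3′ on the strand of the gene, with matched motifs in capitals; those of Cftr (chr6:18170437-18170736, plus strand), Slc4a2 (chr5:24425594-24425893, plus strand) and Slc26a1 (chr5:108674747-108675046, minus strand) are:
Cftr: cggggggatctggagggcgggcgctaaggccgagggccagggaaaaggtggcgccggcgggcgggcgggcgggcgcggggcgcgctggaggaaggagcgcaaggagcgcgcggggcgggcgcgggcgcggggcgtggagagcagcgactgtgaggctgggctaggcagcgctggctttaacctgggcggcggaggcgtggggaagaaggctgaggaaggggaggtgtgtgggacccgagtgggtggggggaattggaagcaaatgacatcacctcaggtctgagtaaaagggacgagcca
Slc4a2: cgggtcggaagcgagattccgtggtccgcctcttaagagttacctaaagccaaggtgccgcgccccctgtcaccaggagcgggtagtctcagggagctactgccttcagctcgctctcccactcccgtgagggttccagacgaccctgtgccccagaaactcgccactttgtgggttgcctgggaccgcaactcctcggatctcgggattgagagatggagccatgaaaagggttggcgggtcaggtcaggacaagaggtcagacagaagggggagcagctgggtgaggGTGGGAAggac
Slc26a1: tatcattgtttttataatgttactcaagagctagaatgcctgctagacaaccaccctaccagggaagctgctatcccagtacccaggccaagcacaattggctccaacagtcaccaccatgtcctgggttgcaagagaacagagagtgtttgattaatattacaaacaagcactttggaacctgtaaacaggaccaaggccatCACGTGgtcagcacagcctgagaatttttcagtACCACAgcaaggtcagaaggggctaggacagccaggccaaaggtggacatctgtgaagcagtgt
A match describes the letters of the window and was not tied to binding.

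Of 16 genes in the carbonic anhydrase family 13 were tested. EdgeR called 0 higher and 0 lower, beside 9.52% and 6.61% of all tested genes. The median log2 fold change was 0.04, and -0.05 when library size alone set the scale. At an unadjusted p under 0.05 there were 2 higher, Car6 and Car13, and 1 lower, Car14. Of all tested genes 19.1% were higher and 15.7% lower at that p. DESeq2 called Car6 and Car13. By edgeR 1 of the 13 was called lower without K14J26, and 2 higher and 1 lower without K14J28. Over all tested genes 1746 were called higher and 1349 lower without K14J26, and 2479 and 1843 without K14J28. Car13 and Car14 are named because their values were seen. Car13, another cytosolic enzyme, was at 39.1, 39.3, 40.6 and 31.0 CPM in J3, J5, J6 and J7, and at 84.6, 39.3, 65.3 and 48.2 CPM in K14J26, K14J28, K14J29 and K14J30. Its log2 fold change was 0.66 ± 0.21 (adjusted p = 0.0636). Per length, Car2 made up 45.9% of the summed level of the family in Control and 39.9% in Mutant molars, and Car13 18.7% and 28.3%.

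**Figure D4:**
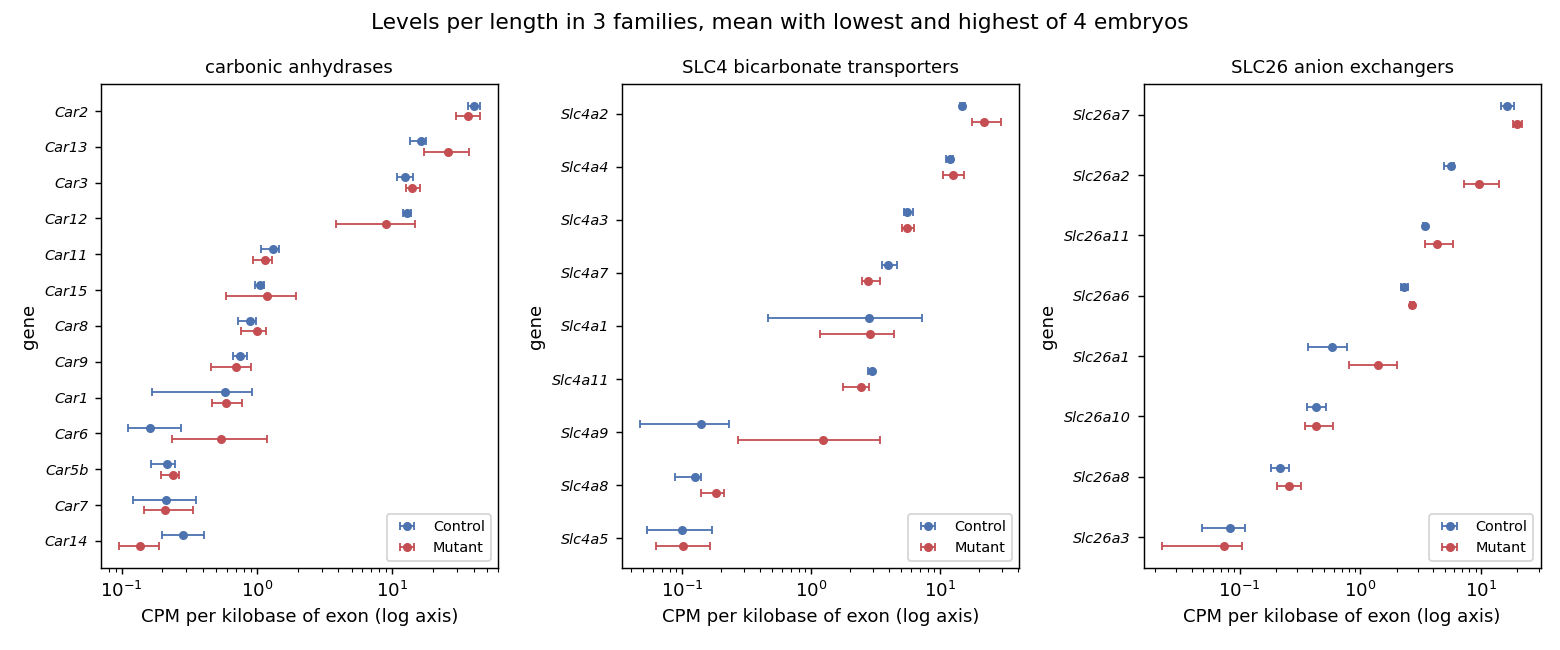
Level per length (x axis, CPM per kilobase of exon, log scale) of the tested carbonic anhydrases, SLC4 and SLC26 genes (y axis); points are means of 4 embryos and bars run from the lowest to the highest embryo. Slc26a9, with an embryo at 0, is not drawn. Car2, Slc4a2 and Slc26a7 are the most abundant of their families, at 40.1, 14.9 and 16.4 CPM per kilobase in Control molars.

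Of 10 SLC4 genes 9 were tested, 2 were higher (Slc4a2 and Slc4a9) and 1 lower (Slc4a7), beside 9.52% and 6.61% of all tested genes. The median was 0.01, and -0.05 on library size alone. Slc4a7, the sodium bicarbonate cotransporter NBCn1, was at 54.2, 57.9, 56.6 and 70.6 CPM in J3, J5, J6 and J7, and at 39.2, 52.5, 37.6 and 39.2 CPM in K14J26, K14J28, K14J29 and K14J30. It fell by 0.51 ± 0.13 on the log2 scale (adjusted p = 0.0294), so the called genes of this family moved in both directions. Without J3, J5, J6, J7, K14J29 or K14J30 its adjusted p lay between 0.0540 and 0.0874. Slc4a9, known as AE4, was at 0.304 to 1.48 CPM in Control embryos and at 21.9, 1.73, 5.44 and 2.72 CPM in K14J26, K14J28, K14J29 and K14J30, the order of the secretory ameloblast sum. It rose by a log2 fold change of 3.14 ± 0.85 (adjusted p = 0.0374), with 0.0721 to 0.104 when J3, J5, J6, J7 or K14J29 was left out. The log2 fold change was 1.89 without K14J26, and edgeR's robust test gave an adjusted p of 0.0540.

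Of 11 SLC26 genes 9 were tested, with a median of 0.28. By edgeR 3 were higher (Slc26a1, Slc26a2 and Slc26a9) and 0 lower, beside 9.52% and 6.61% of all tested genes. At an unadjusted p under 0.05, 5 were higher and 0 lower, beside 19.1% and 15.7% of all tested genes. DESeq2 called 4 higher and 0 lower. On library size alone the median was 0.18 and edgeR called 2 higher, with Slc26a9 at an adjusted p of 0.0618. With Xist as a covariate the median was 0.5, also with 2 higher. Slc26a2, a sulfate transporter known from cartilage and bone, was at 60.4, 72.1, 74.0 and 69.7 CPM in J3, J5, J6 and J7, and at 175, 89.2, 119 and 94.6 CPM in K14J26, K14J28, K14J29 and K14J30. The groups did not overlap and its log2 fold change was 0.79 ± 0.19 (adjusted p = 0.0294; 0.0561 to 0.0838 without J3, J5, J6, J7 or K14J29). The 5 cartilage markers, led by Col2a1, summed to 13.98 to 19.1 CPM in Control and 10.4 to 14.4 CPM in Mutant embryos. The 5 bone markers, led by Ibsp, summed to 305 to 374 CPM in Control and 439 to 650 CPM in Mutant embryos, and all but Ibsp were called higher, with a median of 1.91. The Mutant order in Slc26a2 was that of the secretory ameloblast sum, and the part of these cells in the result was not tested. Slc26a9 had 0 to 1 counts per embryo in Control and 2, 24, 3 and 10 counts in K14J26, K14J28, K14J29 and K14J30, so its call (adjusted p = 0.0454) rests on few reads and was lost, at 0.0593 to 0.120, without J3, J5, J6, J7 or K14J29. Without K14J28 or K14J30 it had too few counts to be tested. Slc26a9 reached 10 counts in 2 embryos only in the Mutant group, and apart from it 2 genes of this family were higher.

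Of 29 tested chloride channels and chloride cotransporters, 8 were higher and 3 lower, beside 9.52% and 6.61% of all tested genes. The list median was 0.24. On library size alone the median was 0.13, with 5 higher and 1 lower. Without J3 or K14J29 edgeR called 2 higher and 0 lower, and without J7 2 higher and 1 lower. It called 12 higher and 5 lower without K14J28. Over all tested genes 373, 250 and 300 were called higher without J3, K14J29 and J7, and 287, 170 and 236 lower. Without K14J28 2479 were higher and 1843 lower, against 1631 and 1133 with all embryos. The median without K14J26 was also 0.13. The most abundant per length was Clic1, at 78.2 CPM per kilobase in Control and 82.3 in Mutant molars (adjusted p = 0.488). Clcn7, the chloride and proton exchanger of lysosomes and of the osteoclast border, was at 46.5, 44.5, 45.1 and 44.9 CPM in J3, J5, J6 and J7, and at 66.4, 71.1, 61.8 and 59.2 CPM in K14J26, K14J28, K14J29 and K14J30. Clcn7 rose by a log2 fold change of 0.51 ± 0.07 (adjusted p = 0.00717) and kept an adjusted p of 0.0320 or less with any 1 embryo left out; the lowest estimate was 0.46. It was highest in K14J28, the embryo with the highest osteoclast markers, whose part in the result was not tested. Clcn3, an exchanger of endosomes, rose by 0.37 ± 0.08 on the log2 scale (adjusted p = 0.0194, and 0.0566 to 0.0641 without J3, J5, J7 or K14J29). Its log2 fold change was 0.26 on library size alone, at an adjusted p of 0.0639. With Xist as a covariate it was 0.33 at 0.0591.

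Ano1, a chloride channel opened by calcium, was at 34.5 to 46.3 CPM in Control and 47.65 to 77.5 CPM in Mutant embryos. It rose by a log2 fold change of 0.66 ± 0.15 (adjusted p = 0.0237; 0.0714 to 0.0770 without J3, J7 or K14J29). Best3, of the bestrophin channels, was at 1.45 to 4.05 CPM in Control and 4.66 to 11.3 CPM in Mutant embryos. It rose by a log2 fold change of 1.63 ± 0.38 (adjusted p = 0.0245; 0.0576 to 0.0734 without J3, J5, J7 or K14J29). Both had their highest value in K14J26 and their lowest Mutant value in K14J28. Clcn1, the chloride channel of skeletal muscle, fell by 1.15 ± 0.24 on the log2 scale (adjusted p = 0.0192; 0.0573 to 0.0642 without J3, J5 or K14J29). It was at 1.44, 1.53, 1.19 and 1.11 CPM in J3, J5, J6 and J7. Without J6 and J7, the embryos with muscle transcripts, the log2 fold change was -1.33 at an adjusted p of 0.133, and with the skeletal muscle score as a covariate it was -1.26 at 0.0604. The part of muscle in the result was not tested beyond these fits. Clic4, named after its values were seen, was also called lower.

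**Figure D5:**
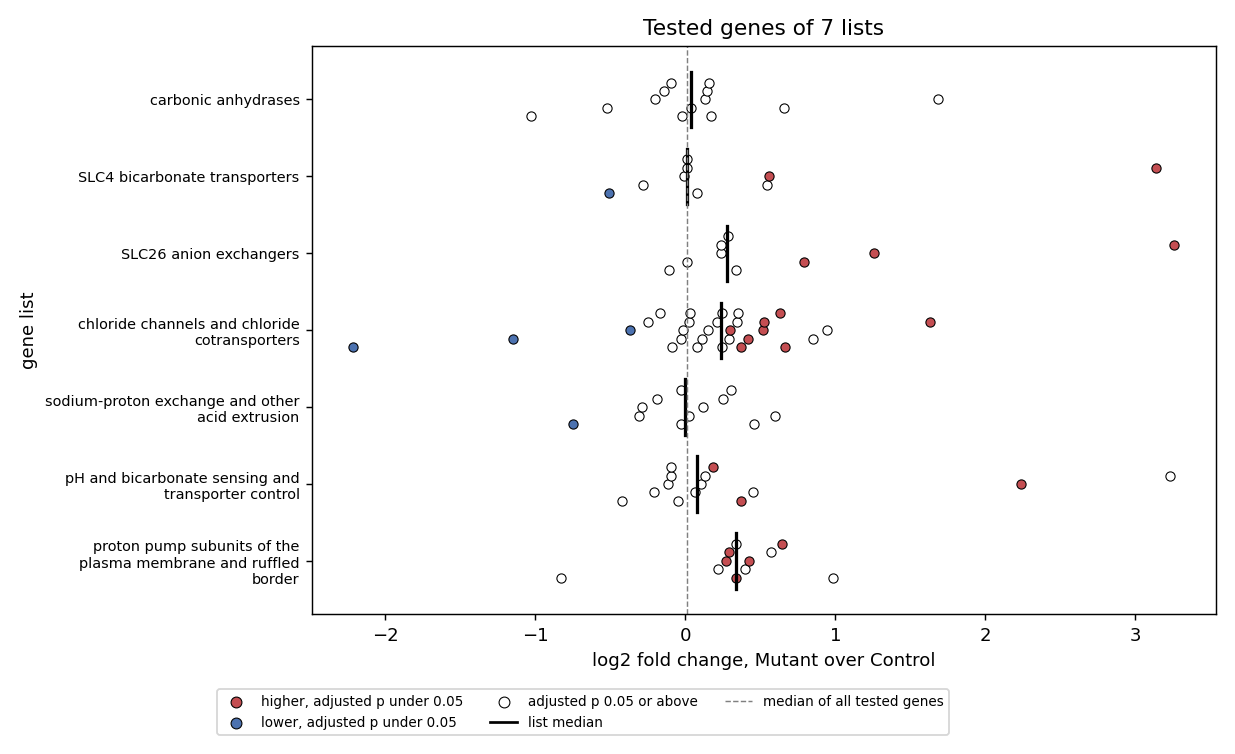
Log2 fold change, Mutant over Control (x axis), of every tested gene in 7 lists of the pathway (y axis), coloured by call, with the median of each list and of all tested genes. The list medians run from 0.00 for acid extrusion to 0.34 for proton pump subunits, and edgeR calls no carbonic anhydrase with all embryos.

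Sodium-proton exchangers and other acid extruders gave 1 call among 12 tested genes, Hvcn1, which was lower. Of all tested genes 9.52% were called higher and 6.61% lower. The list median was 0.00, and -0.10 on library size alone. With all embryos and no covariate, none was called higher by edgeR, and DESeq2 called 1 higher and 2 lower. At an unadjusted p under 0.05 edgeR gave 2 higher and 3 lower, beside 19.1% and 15.7% of all tested genes. Without K14J28, where 11 were tested, edgeR called 2 higher and 2 lower, and with Xist as a covariate 1 higher and 1 lower. Over all tested genes it called 2479 higher and 1843 lower without K14J28, and 1510 and 799 with Xist. Hvcn1, a proton channel known from leucocytes, was at 13.2, 11.5, 10.3 and 13.2 CPM in J3, J5, J6 and J7, and at 5.05, 8.55, 6.79 and 8.19 CPM in K14J26, K14J28, K14J29 and K14J30. It fell by 0.75 ± 0.17 on the log2 scale (adjusted p = 0.0232; 0.0576 to 0.0747 without J3, J5, J7 or K14J29). The 6 leucocyte markers, led by Csf1r, summed to 59.6 to 82.5 CPM in Control and 56.6 to 161 CPM in Mutant embryos. The most abundant gene of this list per length over all 8 embryos, Slc9a3r1, was at 17.96 CPM per kilobase in Control and 21.4 in Mutant molars (adjusted p = 0.107).

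Of 14 tested genes that sense pH or bicarbonate or control the transporters, 3 were higher and 0 lower by edgeR. Of all tested genes 9.52% were called higher and 6.61% lower. The list median was 0.08, and -0.01 on library size alone. None was lower at an unadjusted p under 0.05, beside 15.7% of all tested genes, or by DESeq2, which called 4 higher. On library size alone edgeR called 1 higher, and 2 were lower at an unadjusted p under 0.05, as 2 were with upper-quartile scaling. Gpr4, a receptor activated by protons, named after its values were seen, was at 2.49 to 3.30 CPM in Control embryos and at 87.0, 2.10, 20.9 and 5.47 CPM in K14J26, K14J28, K14J29 and K14J30, the order of the secretory ameloblast sum, and was not called (adjusted p = 0.0546). Ahcyl2, related to a regulator of bicarbonate cotransport, rose by a log2 fold change of 0.37 ± 0.09 (adjusted p = 0.0296; 0.0710 to 0.0866 without J5, J6, J7 or K14J29, and 0.0583 on library size alone). Oxsr1, a kinase that acts on chloride cotransporters, had a log2 fold change of 0.18 ± 0.05 at an adjusted p of 0.0484, which was 0.0521 to 0.154 with any of the 8 embryos left out and 0.508 on library size alone, at a log2 fold change of 0.08. Ahcyl1 was the most abundant per length, at 47.9 and 44.8 CPM per kilobase (adjusted p = 0.308).

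Proton pump subunits had a list median of 0.34, with 5 higher and 0 lower of 11 tested, beside 9.52% and 6.61% of all tested genes. By edgeR 1 was lower at an unadjusted p under 0.05, and DESeq2 called 5 higher and 1 lower; on library size alone the median was 0.26 and 2 were higher. Atp6v1c1 was at 55.6, 62.1, 55.5 and 54.4 CPM in J3, J5, J6 and J7, and at 78.7, 77.3, 81.0 and 68.4 CPM in K14J26, K14J28, K14J29 and K14J30, and rose by a log2 fold change of 0.42 ± 0.07 (adjusted p = 0.0122; 0.0475 at most with 1 embryo left out). Atp6v0a4, a subunit known from acid-secreting kidney cells, rose by 0.64 ± 0.16 (adjusted p = 0.0318; 0.0540 to 0.0933 without J3, J5, J6, J7 or K14J29). The order of its Mutant values, K14J26 (22.4 CPM), K14J29 (18.4), K14J30 (16.1) and K14J28 (12.8), was that of the secretory ameloblast sum, whose part in the result was not tested. Atp6v0a2, Atp6v1b2 and Atp6v1g1, the last the most abundant per length, had log2 fold changes of 0.29, 0.34 and 0.27 at adjusted p of 0.0234, 0.0312 and 0.0364. Those calls were lost without J3, J5, J7 or K14J29, and for Atp6v1b2 and Atp6v1g1 also without J6, at adjusted p of up to 0.0771, 0.0866 and 0.103. Of the 11, 1 was called higher without J3, J5, J7 or K14J29, 2 without J6, 5 without K14J26 or K14J30 and 7 without K14J28. The calls over all tested genes moved too, from 1631 higher with all embryos. They were 373, 451, 300 and 250 without J3, J5, J7 and K14J29, and 854 without J6. Without K14J26, K14J30 and K14J28 they were 1746, 1337 and 2479. By edgeR 1 was called lower without K14J30, with upper-quartile scaling, and with at least 10 counts required in all embryos. With the skeletal muscle score as a covariate, or without both J6 and J7, edgeR called 0, with 5 higher at an unadjusted p under 0.05.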

How the data were processed

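Lower molars of 4 Control and 4 Mutant embryos were profiled by RNA-seq, and groups follow the sample labels. Reads were trimmed (Trimmomatic) and mapped to GRCm38 (STAR) by the authors, who deposited per embryo an unnormalized read count for each of 43629 Ensembl genes. The paper names GenomicRanges as the counter and the submitters' processing notes name featureCounts, and the treatment of strand and of reads with several matches is not given in the sources used here. Symbols, positions and exon lengths came from GENCODE M21, which holds 42548 of the identifiers. A gene was tested when 2 or more embryos of a group had 10 or more counts, which held for 17129. Scaling was by TMM, and p-values came from the edgeR 4.0.16 quasi-likelihood test (R 4.3.3; no covariate), adjusted after Benjamini and Hochberg. The SE was obtained from the log2 fold change and the F statistic. The steps were tested on simulated counts with 200 changed genes and the same spread in both groups. The real Mutant embryos spread more than the Control embryos, which the simulation does not cover. Alternatives were other scalings, DESeq2 1.42.0, edgeR's robust test, other count filters, leaving out the 20 most abundant genes, a covariate (Xist or a skeletal muscle score), a stricter threshold and omission of single embryos; leaving out J6 and J7 together was chosen after seeing the data. Likeness of patterns is Pearson's r on log2 CPM with a prior count of 2, as a description: all points share the 2 genotypes. The members and lists were chosen with earlier results of these data known. Named genes are the members, Jag1, genes overlapping a member, the most abundant gene and up to 6 called genes with the smallest p of each list, the most abundant gene of each marker list used, markers at 0, and the 3 genes most like each member; others are said to be named after their values were seen. Some genes counted in the lists are not reported here by name. Litter was not used.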

Additional observations from a re-analysis of the deposited data

Results flagged for a closer look

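In 54 groups of 4 embryos, from the 8 members, Jag1 and the called genes of the pathway lists, 3 single embryos stood apart from the other embryos of their group by Dixon's ratio of gap to range, and chance flags about 1 in 20 such groups. Slc4a7 was at 52.5 CPM in K14J28, above 37.6 to 39.2 CPM in the other Mutant embryos. Ahcyl2 was at 201 CPM in J3, above 167 to 172 CPM in the other Control embryos. Atp6v1c1 was at 62.1 CPM in J5, above 54.4 to 55.6 CPM in the other Control embryos. None of the 3 is one of the 8 members.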

How the results depend on the processing

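Under every alternative, the log2 fold changes of Car2, Car6, Car12, Cftr, Slc4a2, Slc26a1 and Slc26a7 kept their sign, while that of Slc4a4 was -0.035 on library size alone and -0.028 without K14J26. With 1 embryo left out the log2 fold changes ran from -0.25 to -0.06 for Car2, 1.01 to 2.06 for Car6, -0.87 to -0.28 for Car12, 0.38 to 0.64 for Slc4a2, -0.028 to 0.15 for Slc4a4, 1.04 to 1.44 for Slc26a1 and 0.23 to 0.35 for Slc26a7. In those fits 1 to 4 members were called higher and 0 to 1 lower, 0 to 1 were lower under the criteria of the study, and 250 to 2479 tested genes were called higher and 170 to 1843 lower, against 1631 and 1133 with all embryos. DESeq2 gave 1.73 for Car6 and 0.28 for Slc26a7, called 5 members higher, and called 1718 tested genes lower. With the skeletal muscle score as a covariate, Slc4a2 was at 0.51 and Slc26a1 at 1.27, both no longer called, 1 member was higher, and 114 tested genes were higher and 90 lower. Without both J6 and J7, an alternative chosen after seeing the data that leaves 2 Control embryos, Cftr, Slc4a2 and Slc26a1 were at 0.66, 0.55 and 1.26, 0 members and 3 tested genes were called higher, 4 tested genes lower, and 666 were lower under the criteria of the study; fewer samples were tested there. With Xist as a covariate 1 member, Car12, was lower under those criteria. Xist was high only in K14J28 and K14J29, both Mutant, so this covariate was not balanced between the groups. Library size alone gave 855 tested genes higher; 44.6% of its calls were higher, and 48.5% with upper-quartile scaling, against 59.0%. With the log2 threshold of the study raised to 1, 2 members and 556 tested genes were higher and 310 tested genes lower. Why a setting moved a value was not tested. With at least 10 counts required in all embryos, Car6 gave no value. Car6 and Slc26a9 had few counts, so depth limits the precision of their values.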
